A study of Mus musculus with 4 samples.

Results

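The 10 genes described here serve fat, retinol and bile acid absorption and were measured in mouse intestinal organoids treated to delete Cbl and Cblb, which encode ubiquitin ligases. They were taken by symbol from the gene list of the deposited files, and all 10 of 10 were found among its 31040 features. They comprise 4 apolipoproteins (Apoa1, Apoa4, Apoc3 and Apob), the lipid transfer protein Mttp, the triglyceride-forming enzyme Dgat1, and 4 intracellular carriers (Fabp1, Fabp2, Fabp6 and Rbp2). The question was whether a knockout changed the level of these genes in each enterocyte, the absorptive cell of the gut lining, or the number of enterocytes. Organoids are cultured epithelium in which stem cells keep dividing and give rise to the mature cell types. Knockout organoids received 4-hydroxytamoxifen at 400 nM for 3 days, and control organoids were grown without it. Both groups came from the same 2 mice, 10 weeks old, that carried Cbl flox/flox, Cbl-b flox/flox and R26Cre ERT2, so the controls also hold the floxed alleles and the Cre. Each mouse gave 1 library of each group (n = 2 per group), and the numbers 1 and 2 name the mice. The drug was given only to the knockouts, so its own effect and the deletion cannot be told apart.

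After a meal, enterocytes take up fatty acids and monoglycerides, carry them on fatty acid binding proteins, rebuild them into triglyceride in the endoplasmic reticulum, and load them onto apolipoprotein B to make chylomicrons. Retinol enters the same cells and is held by a retinol binding protein, while bile acids are taken back up by enterocytes of the ileum. These genes are known for steep gradients along the gut: Fabp1 belongs to the duodenum and jejunum, and Fabp6 to the ileum. Organoids have no blood or lymph vessels, and RNA levels were measured here, not lipid transport.

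Apoa1, Apoc3 and Apoa4 lie side by side on chromosome 9 (GRCm38, GENCODE M21). Apoa1 spans 46228580 to 46230466 on the plus strand, Apoc3 spans 46232933 to 46235636 on the minus strand, and Apoa4 spans 46240696 to 46243459 on the plus strand. The gaps between them are 2466 and 5059 bases, and the 3 genes together take up 14880 bases. The RefSeq promoter table (GRCm38.p6) held a promoter for 8 of the 10 genes, all but Apoc3 and Dgat1. Their windows, 250 bases before to 50 bases after the start of transcription, were searched on both strands for CAAAGTNCA, a core letter pattern of the sites of HNF4 factors, which are known for switching on enterocyte genes. It was found in 3 of the 8, at 182 bases upstream in Apoa4, 137 bases upstream in Fabp2 and 101 bases upstream in Rbp2. Of all 32851 promoters in the table, 1.41% held it. AGATAA, the GATA factor pattern, was in 1 of the 8 (Rbp2) and in 11.2% of all promoters. TATAAA was in 4 of the 8 (Apob, Fabp1, Fabp6 and Rbp2) and in 13.6% of all promoters, and in Rbp2 a GATA match and a TATA match share 1 base. The 250 bases upstream of Fabp2 and Rbp2, and the first 102 of those of Apoa4, are shown with those of Fabp6, which differed in direction between the mice in the results that follow. The windows of Fabp6, Apoa1, Apob, Mttp and Fabp1 hold no CAAAGTNCA. The Apoa4 run stops where the gene begins in GENCODE M21, whose start lies before that of RefSeq. The Rbp2 run lies inside the longer GENCODE span of that gene and overlaps none of its exons. Capitals mark CAAAGTNCA or its reverse complement, and each sequence reads in the direction of its gene, at chr9:46240594-46240695 (plus strand) for Apoa4, chr3:122894822-122895071 (plus strand) for Fabp2, chr9:98490287-98490536 (plus strand) for Rbp2 and chr11:43601563-43601812 (minus strand) for Fabp6.
Apoa4: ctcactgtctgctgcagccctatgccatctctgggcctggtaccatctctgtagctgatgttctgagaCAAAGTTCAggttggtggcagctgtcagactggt
Fabp2: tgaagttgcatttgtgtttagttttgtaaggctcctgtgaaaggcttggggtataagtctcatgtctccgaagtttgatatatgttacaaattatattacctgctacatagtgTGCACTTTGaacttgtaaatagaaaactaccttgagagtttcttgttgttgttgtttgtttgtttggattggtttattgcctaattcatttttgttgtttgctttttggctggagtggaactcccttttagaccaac
Rbp2: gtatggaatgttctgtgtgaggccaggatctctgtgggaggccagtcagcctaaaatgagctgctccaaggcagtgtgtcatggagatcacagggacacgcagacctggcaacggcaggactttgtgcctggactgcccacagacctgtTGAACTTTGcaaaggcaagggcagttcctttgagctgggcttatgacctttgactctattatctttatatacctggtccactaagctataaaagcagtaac
Fabp6: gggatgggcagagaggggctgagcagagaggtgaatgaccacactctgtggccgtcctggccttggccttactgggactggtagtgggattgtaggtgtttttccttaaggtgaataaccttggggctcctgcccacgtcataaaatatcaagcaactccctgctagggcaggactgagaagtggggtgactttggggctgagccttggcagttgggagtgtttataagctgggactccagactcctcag

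The libraries held 709 to 1983 barcodes and 22139560 to 35592468 UMIs, each UMI standing for 1 captured RNA molecule, and 5359 of 5602 barcodes were kept. Levels are CPM, the UMIs of a gene per 1000000 UMIs of the library or cell class. Summed over all cells, the targeted genes were lower in the knockout of each mouse: Cbl had 12.3 and 10.5 CPM in knockouts 1 and 2, against 17.0 and 19.9 CPM in controls 1 and 2, and Cblb had 3.35 and 0.464 CPM in the knockouts, against 8.51 and 3.93 CPM in the controls. In the enterocyte-like cells defined below, Cbl was not lower in mouse 1, with 17.2 and 12.4 CPM in the knockouts, against 14.2 and 17.3 CPM in the controls, on 29 to 87 UMIs. Cblb had 4.14 and 0 CPM there in the knockouts, where 0 UMIs allow up to 0.885 CPM, against 7.63 and 2.98 CPM in the controls. The sources used here do not give which exons were deleted or where in the transcript the UMIs were read, and reads from retained exons would be no check of the labels. Cells were clustered without the 10 genes and without the other lipid, retinoid and bile acid genes named later. Of 17 clusters, 3 were enterocyte-like by 15 general enterocyte markers such as Alpi, Sis and Anpep, all of which were detected in the class. In that class the summed level of 9 mesenchymal markers was 0 CPM in 3 libraries and 0.199 CPM in control 2, 4 erythroid markers were at 0, and 10 immune markers summed to 9.47 to 16.6 CPM. Knockout cells were less deeply covered, with medians of 16071 and 17505.5 UMIs per cell in knockouts 1 and 2, against 19555 and 27457.5 in controls 1 and 2. The part of this depth difference in the results was not tested, apart from the thinned values given beside detection.

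Summed over all cells, 9 of the 10 genes were lower in the knockout of both mice, and Fabp6 was the exception. In such a sum fewer enterocytes and less RNA in each cannot be told apart, so the parts are taken up afterwards. With the mouse as a block, which is the meaning of rose and fell throughout, 8 of the 10 fell (edgeR quasi-likelihood test, Benjamini-Hochberg adjusted p under 0.05). Of all 13246 genes tested, 7.78% fell and 4.1% rose in the same fit. The median log2 fold change, knockout over control, was −1.07 over the 10 genes and −0.01 over all genes. With the group as the only term, none of the 10 and none of all genes passed, although 507 genes were higher and 631 lower at an unadjusted p under 0.05, and DESeq2 with the group alone called 19 higher and 99 lower, Apoa4 and Dgat1 among those lower. All these p-values rest on 2 mice and 4 libraries. The block fit has 1 residual degree of freedom, so its errors come mostly from the spread of other genes.

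**Figure D1:**
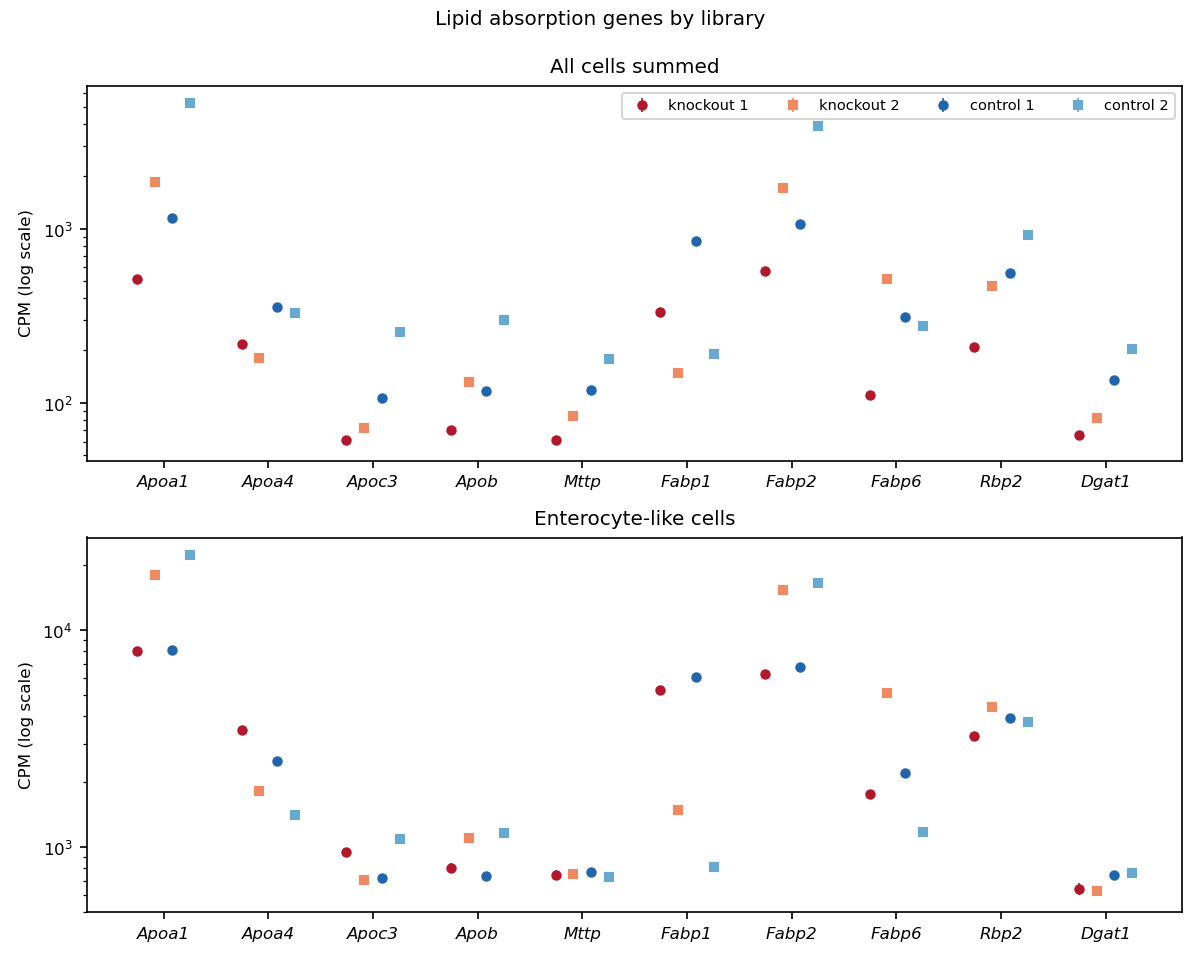
CPM of each gene in each library (log axis), summed over all cells (top) and over enterocyte-like cells (bottom). Circles are mouse 1 and squares mouse 2, knockouts in red tones and controls in blue tones, with bars for the exact Poisson 95% interval, mostly smaller than the symbol. In all cells the knockout of a mouse lies below its control for every gene but Fabp6 in mouse 2, while in the sums over enterocyte-like cells the 2 libraries of a mouse lie close together for genes such as Mttp and Fabp2.

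Of the apolipoproteins, Apoa1, the main protein of high-density lipoprotein and a surface protein of new chylomicrons, had 514 and 1858 CPM in knockouts 1 and 2, against 1153 and 5242 CPM in controls 1 and 2. The groups overlapped, mouse 2 being the higher in each, and within each mouse the knockout was at 44.6% and 35.4% of control. Apoa1 fell by 1.37 ± 0.11 on the log2 scale (SE, adjusted p = 0.00321, edgeR with the block), while the group alone gave −1.47 ± 0.99 with an adjusted p of 0.640. Apoa4, a chylomicron protein made in response to fat, had 218 and 182 CPM in the knockouts, against 358 and 327 CPM in the controls. Both knockouts lay below both controls, and the fall of 0.82 ± 0.09 log2 units (edgeR, adjusted p = 0.00560) was the smallest of the 8. Apoc3, an inhibitor of lipoprotein lipase, had 61.0 and 71.3 CPM in the knockouts, against 106 and 255 CPM in the controls. Its groups did not overlap either, and it fell by 1.36 ± 0.23 log2 units (edgeR, adjusted p = 0.0211), though DESeq2 with the block, which called 5.41% of genes lower, did not call it (adjusted p = 0.0778).

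Apob, the structural protein on which each chylomicron is built, had 69.5 and 131 CPM in the knockouts, against 117 and 298 CPM in the controls. The knockout of mouse 2 lay above the control of mouse 1, yet within the mice Apob was at 59.6% and 44.0% of control, and it fell (−1.01 ± 0.12, edgeR adjusted p = 0.00770). Mttp, which moves triglyceride onto Apob, had 61.5 and 83.6 CPM in the knockouts, against 119 and 178 CPM in the controls, with no overlap. Mttp fell by 1.06 ± 0.08 log2 units (edgeR, adjusted p = 0.00290). Dgat1, which adds the last fatty acid of triglyceride, had 65.7 and 81.5 CPM in the knockouts, against 135 and 205 CPM in the controls, again with no overlap, and fell by 1.22 ± 0.10 log2 units (edgeR, adjusted p = 0.00303).

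Among the carriers, Fabp2, the intestinal fatty acid binding protein, had 574 and 1710 CPM in the knockouts, against 1067 and 3915 CPM in the controls. It fell by 1.09 ± 0.11 log2 units (edgeR, adjusted p = 0.00517), with groups that overlapped across the mice. Rbp2, the cellular retinol binding protein of enterocytes, had 208 and 466 CPM in the knockouts, against 559 and 918 CPM in the controls, without overlap. Rbp2 fell by 1.24 ± 0.13 log2 units (edgeR, adjusted p = 0.00546), the last of 5 genes whose knockouts both lay below both controls, as was so for 19.1% of all genes tested. Fabp1, the liver-type fatty acid binding protein, had 333 and 148 CPM in the knockouts, against 855 and 191 CPM in the controls. Its knockouts were at 38.9% and 77.2% of control, and −0.91 ± 0.22 just missed the threshold (edgeR, adjusted p = 0.0501), while 4 of 6 settings of the block fit called it. Fabp6, the ileal bile acid binding protein, had 111 and 517 CPM in the knockouts, against 311 and 276 CPM in the controls. It was at 35.8% of control in mouse 1 and at 188% in mouse 2, and its fold change of −0.32 ± 0.52 did not pass (edgeR, adjusted p = 0.726).

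Enterocyte-like cells made up a smaller part of both knockout libraries. They were 13.2% of cells (214 of 1627, exact Clopper-Pearson 95% interval 11.5 to 14.9) and 15.2% (289 of 1902, 13.6 to 16.9) in knockouts 1 and 2, against 21.0% (241 of 1148, 18.7 to 23.5) and 38.3% (261 of 682, 34.6 to 42.0) in controls 1 and 2. Both knockouts lay below both controls, with means of 14.2% ± 1.44 and 29.6% ± 12.2 (SD, n = 2 each). The difference of −15.5 percentage points had p = 0.333 in a two-sided exact permutation test, the smallest p that 2 against 2 libraries allow. The intervals cover counting error only. Of all UMIs, enterocyte-like cells held 6.08% and 9.83% in the knockouts, against 13.9% and 23.0% in the controls, or 43.6% and 42.7% of control. The 2 mice reached this in different ways. In mouse 1 the knockout had 62.7% of the control's share of cells and 69.6% of its UMIs per enterocyte relative to all cells. In mouse 2 it had 39.7% of the share of cells and 108% of the relative UMIs per enterocyte.

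In UMIs summed over the enterocyte-like cells of a library, none of the 10 genes rose or fell, with the block or with the group alone. In the block fit 0.721% of the 9842 genes tested there rose and 0.518% fell, and the median log2 fold change was 0.00 over the 10 genes and 0.00 over all genes. DESeq2, with or without the block, called none of the 10. At an unadjusted p under 0.05 the block fit had Apoa4 and Fabp6 higher, and, of all 9842 genes, 413 higher and 416 lower. The standard errors of the 10 genes in this class, 0.17 to 0.33 log2 units, leave room for small changes that would not pass.

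A sum gives the most weight to the cells with the most UMIs, and the typical cell gave another picture. Enterocyte-like cells were shallower in the knockouts, with medians of 5108 and 8911 UMIs in knockouts 1 and 2, against 10136 and 15208 in controls 1 and 2. What part of the differences in medians came from depth was not tested. The median over enterocyte-like cells, in UMIs of a gene per 10000 UMIs of the cell, was lower in the knockout of both mice for 8 of the 10 genes, all but Fabp6, whose median was 0 in every library, and Rbp2. Of 1042 genes with a median above 0 in every library, 39.5% were lower in both mice and 15.8% higher. Of the 10 genes, 8 met this limit, and 7 of these 8 were lower in both mice. Fabp1 did not meet it, with a median of 0 in knockout 2 and 0.34 in control 2. Fabp2 had medians of 16.3 and 66.1 in knockouts 1 and 2, against 35.4 and 97.4 in controls 1 and 2. Apoa1 had 46.6 and 169 in the knockouts, against 64.6 and 226 in the controls, and Dgat1 had 5.47 and 6.10 in the knockouts, against 7.80 and 8.02 in the controls. With every cell given equal weight, limma with the block called none of the 10 genes and, of 11386 genes, 0.378% higher and 0.316% lower, in a fit added after the data were seen. In that fit Dgat1 was at −0.34 ± 0.19 (adjusted p = 0.770), Fabp2 at −0.34 ± 0.24 (adjusted p = 0.891), and Fabp6 came nearest to the threshold at 0.70 ± 0.19 (adjusted p = 0.0502). The clusters within the class, described later, were present in different proportions in the 2 groups. Inside the largest of them the median of Fabp2 was 41.3 and 97.9 in the knockouts, against 40.7 and 124 in the controls, and 2 of the 10 genes (Apoa1 and Dgat1) were lower in both mice and 3 (Mttp, Apoa4 and Rbp2) higher. Of 1429 genes with a median above 0 in every library there, 29.2% were lower in both mice and 29.8% higher. Of the 10 genes, 8 met this limit, the same 2 of them lower and the same 3 higher. In the Mgat4c-led cluster described later 7 met it, 1 (Dgat1) lower in both mice and 2 (Mttp and Apoa1) higher. There 45.1% of 809 genes were lower and 12.6% higher. In the small Adh1-led cluster 9 met it, 1 (Mttp) lower and 4 (Fabp1, Apoa4, Rbp2 and Apob) higher, against 32.5% and 22.0% of 840 genes.

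**Figure D2:**
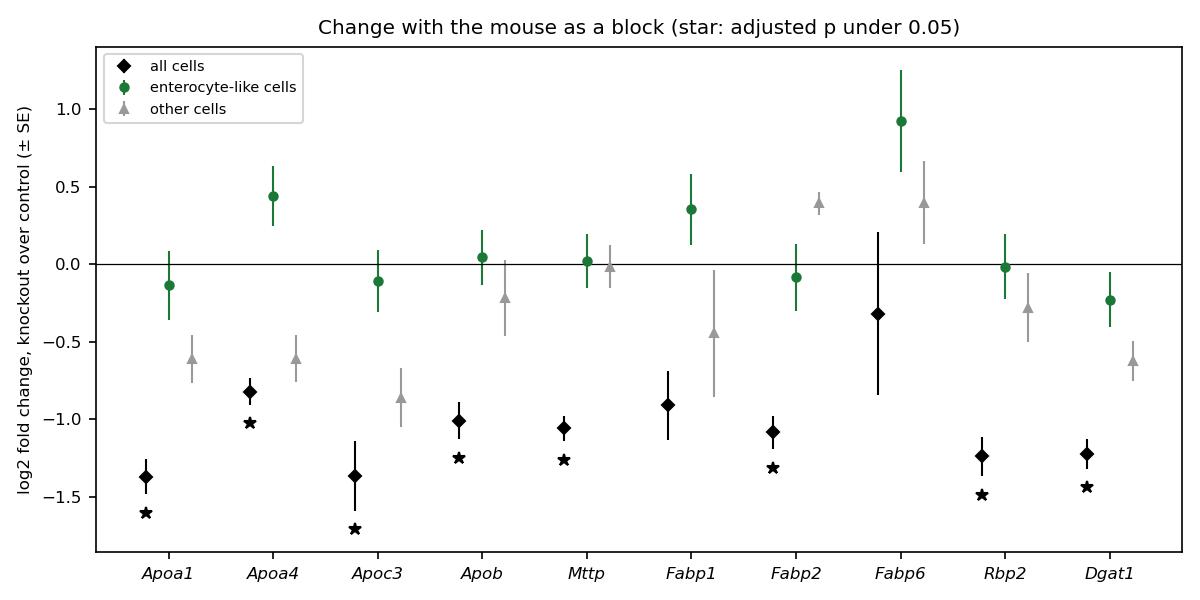
Log2 fold change of each gene, knockout over control, with its standard error, from the edgeR fit with the mouse as a block, in all cells (black diamonds), enterocyte-like cells (green circles) and all other cells (grey triangles). Stars mark an adjusted p under 0.05: 8 genes in all cells and none in the other 2 sets of cells.

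In the sums, Mttp gave the tightest values, with 744 and 752 CPM in enterocyte-like cells of knockouts 1 and 2, against 763 and 730 CPM in controls 1 and 2. The knockouts were at 97.6% and 103% of control, a log2 fold change of 0.02 ± 0.18 (edgeR with the block, adjusted p = 0.996). Fabp2 had 6300 and 15301 CPM in the knockouts, against 6765 and 16420 CPM in the controls, which is 93.1% and 93.2% of control in the sum, a smaller difference than in the medians above. Apob had 798 and 1105 CPM in the knockouts, against 735 and 1156 CPM in the controls, and its groups interleaved. Apoa1 had 8026 and 18058 CPM in the knockouts, against 8080 and 22194 CPM in the controls, so the mice differed more than the groups. Rbp2 had 3247 and 4409 CPM in the knockouts, against 3953 and 3790 CPM in the controls, with opposite directions in the 2 mice.

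In the sums Apoa4 was higher, and Apoa1, Fabp2 and Dgat1 lower, in the knockout of both mice without passing the test. Apoa4 had 3451 and 1817 CPM in enterocyte-like cells of the knockouts, against 2494 and 1400 CPM in the controls, or 138% and 130% of control. The median cell went the other way, with 13.0 and 9.51 Apoa4 UMIs per 10000 in the knockouts, against 15.1 and 10.2 in the controls, while the cell at the 90th percentile had 104 and 59.8 in the knockouts, against 80.7 and 42.4 in the controls. The log2 fold change of the Apoa4 sum was 0.44 ± 0.19 with an adjusted p of 0.475 (edgeR with the block). Over all cells Apoa4 fell by 0.82. Dgat1 had 641 and 625 CPM in the knockouts, against 745 and 756 CPM in the controls, without overlap of the groups, as was so in this direction for 13.4% of all genes tested in the class. Dgat1 was at 86.1% and 82.6% of control, with −0.23 ± 0.17 and an adjusted p of 0.850.

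Apoc3, Fabp1 and Fabp6 went opposite ways in the 2 mice. Apoc3 had 946 and 703 CPM in enterocyte-like cells of the knockouts, against 722 and 1091 CPM in the controls. Fabp1 had 5326 and 1481 CPM in the knockouts, against 6092 and 809 CPM in the controls, so it was several times higher in mouse 1 whatever the genotype. Fabp6 had 1759 and 5111 CPM in the knockouts, against 2195 and 1169 CPM in the controls, or 80.2% and 437% of control. Its log2 fold change was 0.93 ± 0.33 with an adjusted p of 0.259 (edgeR with the block), and 4 of 16 settings with the block called it.

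For 5 of the 10 genes (Apoa1, Apoa4, Apob, Fabp1 and Fabp2) the difference between the mice exceeded the difference between the groups in every pairing, and it had the same direction in both groups. Mouse 2 had 2.25 times the Apoa1 of mouse 1 in the knockouts and 2.75 times in the controls, and 2.43 times the Fabp2 in both. It had 0.526 and 0.561 of the Apoa4, and 0.278 and 0.133 of the Fabp1. Mttp and Dgat1 differed little between the mice, at 1.01 and 0.956 times for Mttp and 0.974 and 1.02 times for Dgat1. Why the mice differ was not tested, and each is 1 animal.

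Counted as molecules rather than as a share of the cell's UMIs, most of these genes were lower in each knockout enterocyte. Apoa1 averaged 63.4 and 212 UMIs per enterocyte-like cell in knockouts 1 and 2, against 127 and 428 in controls 1 and 2. Dgat1 averaged 5.07 and 7.33 UMIs in the knockouts, against 11.7 and 14.6 in the controls. All UMIs of these cells were fewer too, with means of 7897 and 11730 per enterocyte-like cell in the knockouts, against 15770 and 19293 in the controls. The other cells of the same libraries had 18470 and 19284 UMIs each in the knockouts, against 25872 and 39995 in the controls, so depth per cell differed beyond the enterocytes. Less RNA per enterocyte and shallower coverage of the knockout libraries cannot be told apart here.

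The summed level was then split in each mouse, by giving the knockout's enterocyte share of UMIs to the control's levels, and the knockout's levels to the control's share. The share alone put every gene between 43.7% and 58.6% of control. The levels alone put the 20 values (10 genes in 2 mice) between 64.3% and 432% of control, with a median of 98.9%, and 8 of the 20 were at or above 100%. For Mttp the share alone gave 50.5% and 46.7% of control in mice 1 and 2, the levels alone 99.9% and 102%, and the observed values were 51.8% and 47.0%. For Apoa4 the share alone gave 45.4% and 43.7%, the levels alone 137% and 129%, and the observed values were 60.8% and 55.7%. For Dgat1 both parts lay below 100%, with 58.6% and 53.8% from the share and 84.6% and 78.7% from the levels.

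**Figure D3:**
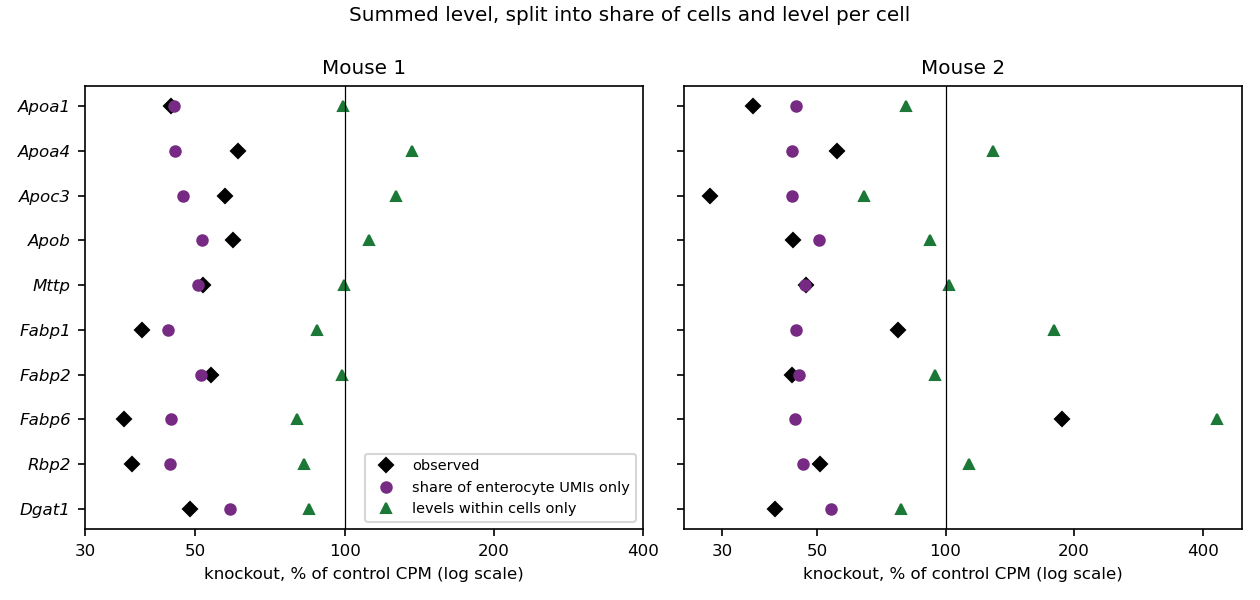
Knockout level of each gene in percent of the control of the same mouse (log axis), as observed over all cells (black diamonds), with only the enterocyte share of UMIs changed (purple circles) and with only the levels inside the cells changed (green triangles). Purple points lie between 43.7% and 58.6% for every gene, while green points scatter around the line at 100%, with Fabp6 of mouse 2 at 432%.

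The same split was also fitted, with all-cell profiles rebuilt at the same enterocyte share in every library (limma on log2(CPM + 1) with the block). Enterocyte-like cells held 59.3% to 98.5% of each gene's UMIs in the knockouts and 77.1% to 99.3% in the controls. The fit with the share fixed therefore largely repeats the comparison inside the class and is no separate test. With the shares as they are, limma called 9 of the 10 genes lower, all but Fabp6, and 9.42% of 11689 genes. With the share fixed it called none of the 10, and, of 11721 genes, 0.0597% lower and 0.0512% higher. The log2 fold changes of the 10 ran from −1.33 to −0.28 with the shares as they are, and from −0.30 (Dgat1) to 0.89 (Fabp6) with the share fixed. The nearest to the threshold were Apoa4 at 0.41 ± 0.06 (adjusted p = 0.0739) and Dgat1 at −0.30 ± 0.07 (adjusted p = 0.107). Both fits with the block were added after the data were seen.

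Outside the enterocyte-like class the genes were measured at low levels, and with the block none of the 10 passed among 12901 genes, of which 0.473% rose and 1.03% fell. Fabp2 came nearest, with 203 and 229 CPM in other cells of the knockouts, against 144 and 176 CPM in the controls. Both knockouts lay above both controls, as they did for 21.3% of all genes there, at 141% and 130% of control, with a log2 fold change of 0.39 ± 0.08 and an adjusted p of 0.0653 (edgeR). Dgat1 had 28.5 and 22.3 CPM in the knockouts, against 35.8 and 39.7 CPM in the controls, also without overlap, as was so in this direction for 13.8% of all genes (−0.62 ± 0.13, edgeR adjusted p = 0.0763). Apoa1 had 27.9 and 92.5 CPM in other cells of the knockouts, against 31.5 and 173 CPM in the controls, with an adjusted p of 0.106. Over 12 settings of the block fit, Fabp2 and Apoa1 were called in 3 each and Dgat1 in 2. A test of the difference between the 2 sets of cells passed for none of the 10 and for 0 of 12543 genes, of which 293 were higher and 165 lower at an unadjusted p under 0.05. Of the 10, Apoa4 had 1.01 ± 0.36 (unadjusted p = 0.0166, adjusted p = 1.00, edgeR interaction term with the library as a block).

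Across 7 classes with at least 10 cells in every library, all 10 genes were highest in enterocyte-like cells, and the lowest of the 4 libraries there lay above the highest library of the next class. The regenerative or fetal-like class, marked by Clu, Anxa1 and Ly6d but also led by the goblet genes Zg16 and Clca1, came second for 9 of the 10 and the enteroendocrine-like class for Apoc3. In the regenerative or fetal-like class Apob was at 12.1% of its enterocyte-like mean, Dgat1 at 11.4%, Rbp2 at 7.55%, Fabp2 at 5.71%, Apoa1 at 4.10% and Apoa4 at 0.369%. Apoa1 averaged 14089 ± 7172 CPM in enterocyte-like cells and 578 ± 66.0 CPM in the regenerative or fetal-like class (SD, n = 4 libraries). Below the first place the order is loose: of 50 further neighbouring pairs of classes, 44 had overlapping ranges over the libraries. The share of UMIs from free RNA was not measured, so levels at a fraction of a percent of the enterocyte value are not read as expression.

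**Figure D4:**
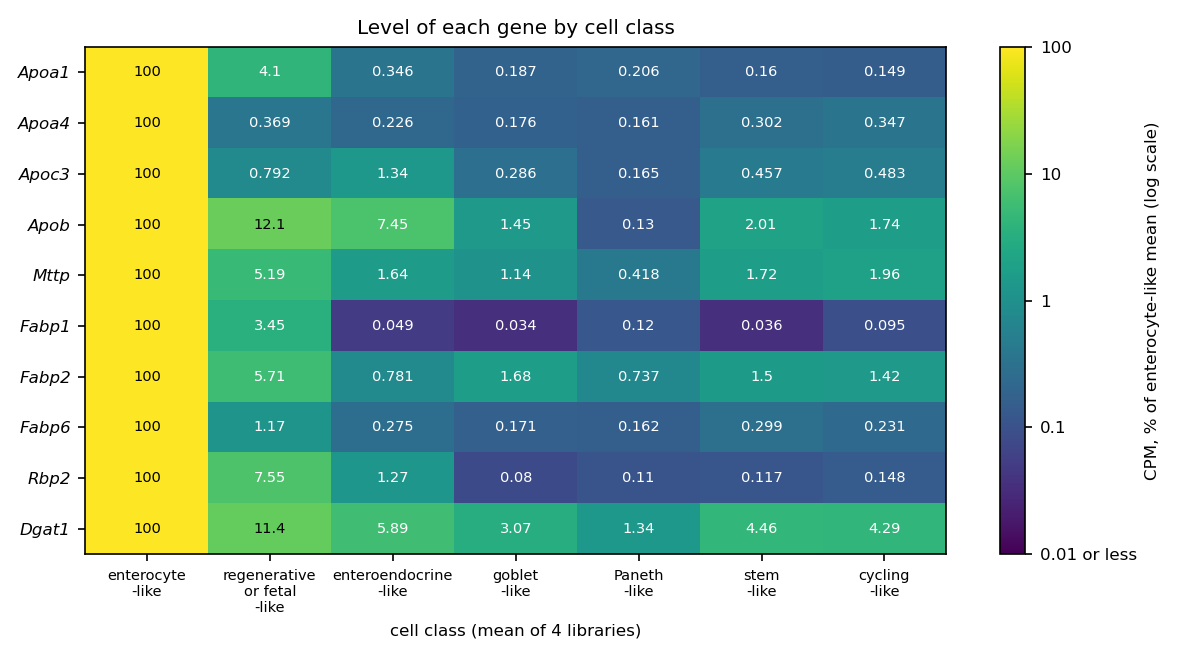
Level of each gene in 7 cell classes as a percentage of its mean in enterocyte-like cells (mean CPM of 4 libraries, log colour scale). Rows are genes and columns are classes; Apob and Dgat1 reach 12.1% and 11.4% in the regenerative or fetal-like column, whereas Apoa4 stays at 0.369% there.

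Fabp2 was detected in crypt cells more widely than the other carriers. Thinned to 2000 UMIs per cell, 31.5% and 29.6% of cycling-like cells had a Fabp2 UMI in knockouts 1 and 2, against 21.0% and 17.9% in controls 1 and 2. Unthinned, the shares were 83.04% and 84.9% in the knockouts, against 80.1% and 85.1% in the controls, at median depths of 26564.5 and 24990.5 UMIs in the knockouts and 37464 and 51761 in the controls. In the same thinned cells Fabp1 was found in 0.89% and 0.16% of the knockouts and in 2.19% and 0% of the controls. For the 0 of 140 cells an approximate upper limit of 2.14%, or 3 cells in 140, was used in place of an exact interval. Fabp6 was found there in 1.79% and 1.76% of the knockouts and in 1.25% and 2.14% of the controls. Summed over all cells, Fabp2 was also more abundant than Fabp1 or Fabp6 in every library. In mouse 1 the gap to Fabp1 was modest. Fabp2 had 574 CPM in knockout 1 and 1067 CPM in control 1, against 333 and 855 CPM of Fabp1. What part of Fabp2 detection in crypt cells came from free RNA was not tested. Thinned Fabp2 detection was 26.2% and 40.4% in stem-like cells of the knockouts, against 23.8% and 27.3% in the controls.

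The enterocyte-like class held 3 clusters that the 10 genes had no part in forming, called here by the leading gene that is not one of the 10. A Tmigd1-led cluster, in which Apoa1 also led, held 69 and 211 cells in knockouts 1 and 2, against 70 and 215 in controls 1 and 2. An Mgat4c-led cluster, in which Fabp6 also led, had the lowest level of general enterocyte markers of the 3. It held 100 and 61 cells in the knockouts, against 70 and 30 in the controls. It was 46.7% and 21.1% of enterocyte-like cells in the knockouts, against 29.1% and 11.5% in the controls, so a larger part of the class in both mice. An Adh1-led cluster, in which Fabp1 also led, with proximal markers above distal ones, held 45 and 17 cells in the knockouts, against 101 and 16 in the controls.

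In sums, Apoa4 was higher in the knockout of both mice in all 3 clusters. In the Mgat4c-led cluster Apoa4 had 693 and 201 CPM in the knockouts, against 354 and 144 CPM in the controls, and it rose there (0.78 ± 0.20, edgeR with the block, adjusted p = 0.0106), though not with the group alone (adjusted p = 1.00). The median cell of that cluster had 2.48 and 0.369 Apoa4 UMIs per 10000 in the knockouts, against 1.85 and 1.27 in the controls, so in mouse 2 it went against the sum. In the Tmigd1-led cluster it had 5130 and 2325 CPM in the knockouts, against 3245 and 1664 CPM in the controls, and the adjusted p was 0.268. In the Adh1-led cluster it had 6280 and 3950 CPM in the knockouts, against 4168 and 1955 CPM in the controls. With the 3 clusters given equal weight in every library, limma with the block put Apoa4 at 0.71 ± 0.14 (adjusted p = 0.000513). With the clusters as they are it was at 0.42 ± 0.15 (limma, adjusted p = 0.183). Equal weights lean on the Adh1-led cluster, which held only 17 cells in knockout 2 and 16 in control 2. Of 11117 genes, 0.378% were called higher with equal weights, and Apoa4 was the only one of the 10. With the clusters as they are, 0.844% of 11141 genes were called higher, and of the 10 Fabp6 alone (0.90 ± 0.15, limma adjusted p = 9.01e-07). In that sum Fabp6 was at 80.2% of control in mouse 1 and at 437% in mouse 2. The error is smaller than this gap, since with 1 residual degree of freedom it comes mostly from other genes. On the same cells edgeR with the block did not call Fabp6.

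**Figure D5:**
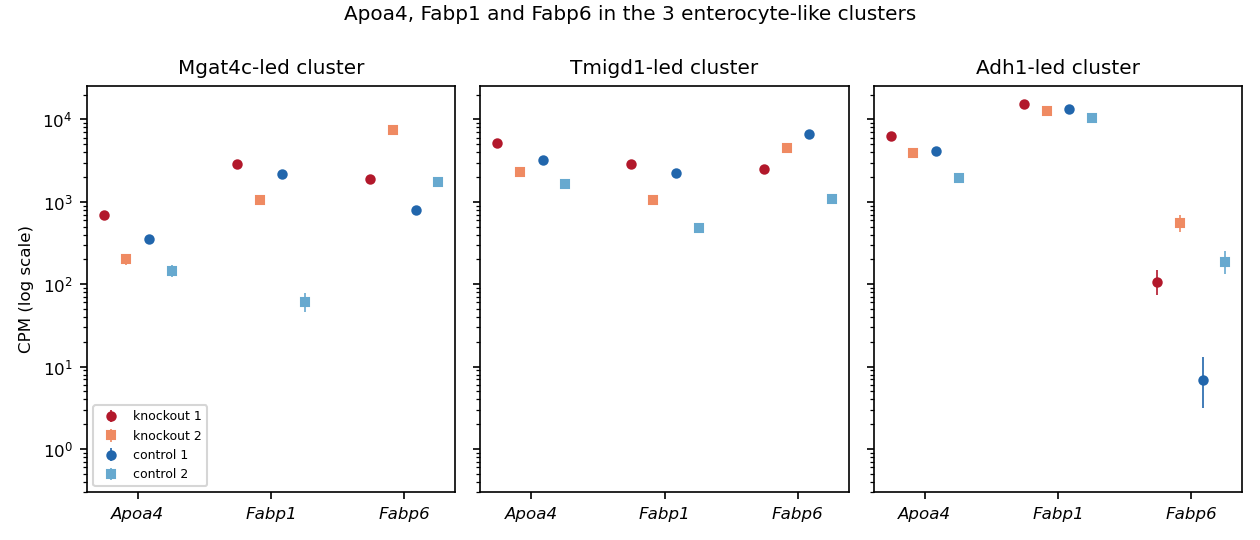
CPM (log axis) of Apoa4, Fabp1 and Fabp6 in the 3 enterocyte-like clusters, knockouts in red tones and controls in blue tones, circles for mouse 1 and squares for mouse 2, with exact Poisson 95% intervals. Summed Apoa4 is higher in the knockout of each mouse in all 3 panels, and Fabp6 lies between 6.86 and 552 CPM in the Adh1-led panel.

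Fabp1 and Fabp6 had the highest fold changes of the 10 in the Mgat4c-led cluster, where 0.948% of 7384 genes rose with the block. Fabp6 had 1884 and 7344 CPM in that cluster of the knockouts, against 798 and 1718 CPM in the controls, with no overlap, as was so in this direction for 12.7% of all genes there, and it rose by 1.71 ± 0.17 log2 units (edgeR, adjusted p = 1.1e-20). Fabp1 had 2843 and 1050 CPM in the knockouts, against 2178 and 60.2 CPM in the controls, or 131% and 1746% of control. It too was called higher (2.03 ± 0.21, edgeR, adjusted p = 1.9e-19), though the control of mouse 2 rests on 30 cells. With 1 residual degree of freedom these errors come mostly from other genes, and they are smaller than the gap between the mice. With the group alone neither passed (adjusted p = 1.00 for both). In the Tmigd1-led cluster Fabp6 had 2512 and 4494 CPM in the knockouts, against 6655 and 1092 CPM in the controls, and none of the 10 genes was called, where 0.338% of 8290 genes rose and 0.157% fell. The Adh1-led cluster had under 20 cells in 2 libraries, so its values are given without a test. Fabp6 had 106 and 552 CPM there in the knockouts, against 6.86 and 186 CPM in the controls.

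The Mgat4c-led and Tmigd1-led clusters are called distal by score, the mean log2 level of the markers relative to all clusters. Their distal scores were 2.577 and 4.004, against proximal scores of 1.715 and 3.442. In summed CPM the proximal markers lay above the distal ones in every library of both, so the name is relative. With only these clusters summed, Fabp1 had 2850 and 1052 CPM in the knockouts, against 2211 and 402 CPM in the controls. Fabp1 rose in these distal enterocyte-like cells (0.89 ± 0.23, edgeR with the block, adjusted p = 0.0142), the only one of the 10 to do so, where 0.825% of 9571 genes rose. The group alone gave 0.59 ± 0.75 with an adjusted p of 1.00, and DESeq2 with the block did not call it.

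Fabp1 and Fabp6 seldom stood high in the same cell. Cells with at least 10 UMIs of both per 10000 made up 1.87% and 3.11% of enterocyte-like cells in knockouts 1 and 2, against 0.41% and 0.77% in controls 1 and 2. The product of the single shares was 6.07% and 6.36% in the knockouts, against 5.87% and 1.55% in the controls, higher than the observed share in all 4 libraries. Spearman's rho between the pair over cells was −0.40 and −0.17 in the knockouts (214 and 289 cells), against −0.51 and −0.18 in the controls (241 and 261 cells). By comparison, Apoa1 and Fabp2 had 0.71 and 0.68 in the knockouts, against 0.66 and 0.63 in the controls, and Fabp1 and Rbp2 had 0.66 and 0.57 in the knockouts, against 0.75 and 0.46 in the controls. These are descriptions over cells that share a library and differ in depth.

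Fabp6 was also the most concentrated of the 10 in 3 of the 4 libraries, and in knockout 2 Fabp1 was slightly more so. The tenth of enterocyte-like cells with the most Fabp6 held 96.1% and 82.5% of its UMIs in the knockouts, against 98.1% and 95.1% in the controls. The same measure for Dgat1 was 33.2% and 27.5% in the knockouts, against 28.7% and 27.0% in the controls. In the knockout of mouse 2, 31.1% of enterocyte-like cells had at least 10 Fabp6 UMIs per 10000, against 12.6% in the control of mouse 2, and in mouse 1 the shares were 12.2% in the knockout and 9.96% in the control. Cells with at least 10 Fabp1 UMIs per 10000 numbered 107 of 214 and 59 of 289 in the knockouts, against 142 of 241 and 32 of 261 in the controls. A sum over so few cells carries more error than its counting interval shows.

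Other genes of the same pathways fell as well over all cells. Of 75 genes on 7 lists, 71 could be tested, 38 fell with the block and none rose, against 7.78% of all genes that fell; with the group alone none passed. Of the bile acid handling genes, 7 of 7 tested fell. Slc10a2, the ileal bile acid importer, had 19.3 and 94.0 CPM in the knockouts, against 31.7 and 162 CPM in the controls (−0.79 ± 0.08, edgeR adjusted p = 0.00469). The basolateral exporter subunits Slc51a (−1.19 ± 0.08) and Slc51b (−1.08 ± 0.08) and the bile acid receptor Nr1h4 (−1.05 ± 0.10) fell as well. The median of this list was −1.05, against −0.01 over all genes.

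Of the genes that rebuild triglyceride, 7 of 10 fell, led by Mogat2, which makes diglyceride from monoglyceride (−1.31 ± 0.07, edgeR adjusted p = 0.00150), with Dgat2 (−1.17 ± 0.12), the sterol esterifying enzyme Soat2 (−1.14 ± 0.12) and Gpat3 (−1.03 ± 0.14). Of the uptake genes 4 of 8 fell, among them the fatty acid transporter Slc27a4 (−1.18 ± 0.08), the cholesterol transporter Npc1l1 (−1.08 ± 0.18) and the sterol exporters Abcg5 (−0.97 ± 0.14) and Abcg8 (−1.02 ± 0.12). Of the chylomicron assembly genes 6 of 14 fell, including Tm6sf2 (−1.16 ± 0.08), Cideb (−1.24 ± 0.09), Creb3l3 (−1.07 ± 0.08) and Pla2g12b (−1.07 ± 0.12), while Sar1b, a coat protein gene of the vesicles that carry chylomicrons, was at −0.12 ± 0.11 (adjusted p = 0.526). Of the retinoid genes 4 of 9 fell: Aldh1a1, which makes retinoic acid (−1.80 ± 0.09), Rdh7 (−1.93 ± 0.22), Dhrs3 (−0.71 ± 0.13) and Lrat, which esterifies retinol (−1.03 ± 0.23). Of other fatty acid binding and oxidation genes 5 of 10 fell, among them the receptor Ppara (−1.41 ± 0.16), Acaa2 (−0.51 ± 0.09), Cpt1a (−0.52 ± 0.10) and Acadm (−0.35 ± 0.07). Of 13 transcription factors 5 fell, including Nr1i3 (−1.36 ± 0.12), Maf (−1.21 ± 0.18), Hnf4g (−0.64 ± 0.10) and Nr1i2 (−0.52 ± 0.12), whereas Hnf4a was at −0.22 ± 0.08 (adjusted p = 0.131).

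Within enterocyte-like cells 2 of 68 tested pathway genes passed with the block, 1 higher and 1 lower, against 0.721% and 0.518% of all genes, and the median log2 fold change of the 68 was −0.05 against 0.00 over all genes. Acsl3, which activates long-chain fatty acids, had 64.5 and 43.7 CPM in the knockouts, against 41.8 and 26.0 CPM in the controls, and rose (0.71 ± 0.18, edgeR adjusted p = 0.0458). Rdh7, a retinol dehydrogenase, had 64.5 and 44.5 CPM in the knockouts, against 84.7 and 96.1 CPM in the controls, and fell (−0.75 ± 0.18, edgeR adjusted p = 0.0273). With the group alone neither passed.

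Genes whose level across classes was most like each of the 10 were ranked by likeness, Pearson's r of log2(CPM + 1) over 16 sums, 4 classes (enterocyte-, Paneth-, cycling- and stem-like) in 4 libraries, among 7693 genes. The sums of 1 library share its depth. Apoa1 was closest to Slc13a2, Rhbg and Ms4a8a, Apoa4 to Casz1, Ces2a and Cyp2d26, Apoc3 to Scp2, Klc4 and Ush1c, and Apob to Fkbp8, St14 and Ms4a10. Mttp was closest to Npc1l1 (r = 0.996), a cholesterol transporter of the uptake list, then Tkfc and Cyb5r3. Fabp1 was closest to Aldh3a2, Ap1b1 and Adh1, Fabp2 to Cyp4f16, Heph and Slc9a3r1, Fabp6 to Gm21885, Rbp2 (r = 0.989) and Ifit1bl2, Rbp2 to Enpep, Erich4 and Slc6a20a, and Dgat1 to Bche, Por and Sult1b1. Rbp2 beside Fabp6 was the only case in which one of the 10 was among the closest 3 of another. The neighbours Apoa1 and Apoc3 had r = 0.968, Apoa4 and Apoc3 had 0.978, and Apoa1 and Apoa4 had 0.957. Pairs that are not neighbours stood as high, such as Apoa1 and Rbp2 at 0.989, and the lowest pair of the 10 was Apob and Fabp1 at 0.837. The values therefore do not set the neighbours apart.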

How the data were processed

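The deposited files hold whole-number UMI counts per gene and cell barcode, for which the submitters' processing notes name Cell Ranger 3.0.1 and the build mm10; the file headers name software version 3.0.0. Each library had 22139560 to 35592468 UMIs. The annotation release and strand setting are not given in the sources used here. Barcodes with under 500 genes (173) and the 70 highest Scrublet scores (0.8% per 1000 barcodes; its automatic threshold marked 0.411% and was not used) were left out. The 2 barcode sequences found in more than 1 library were kept. No mitochondrially encoded gene is listed.

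Cells were clustered with scanpy 1.11.5 (2000 variable genes without the 10 genes and the pathway lists, 30 components, 15 neighbours, Leiden resolution 1) and named from marker lists. UMIs were summed per library and class and tested two-sided with edgeR 4.0.16 (quasi-likelihood, TMM, filterByExpr), first with the group alone as designed. Same-numbered libraries share a mouse by the labels and the tags on the deposited files, and their deviations from the group means correlated at 0.660 over 13246 genes in all cells and at 0.563 over 9842 genes in enterocyte-like cells, so the fit with the mouse as a block is given beside it. DESeq2 1.42.0 and limma 3.58.1 were alternatives. The scripts were tested on simulated data with known changes of 1 or 2 log2 units, using the spread of the block fit. The group alone recovered 0% of the changed genes in all cells and in enterocyte-like cells. With the block, 94% and 84% of changes of 1 log2 unit were recovered, and 10 of 204 and 14 of 198 calls were false. These rates hold for the simulated spread only. They do not show how often changes that differ between the mice, as for Fabp6, are recovered or falsely called. Libraries of a group differed far beyond counting noise (chi-square per degree of freedom 60.4 between the knockouts and 87.0 between the controls). Intervals are exact and cover counting error only. The 10 genes, the lists, the markers and the naming limits were chosen with earlier results of these data known. Named genes are the 10, up to 4 per pathway list with the smallest p among those called with the block, the 3 closest per gene, the targeted genes, and Sar1b, Hnf4a and Fgf15 and the leading genes of clusters, which were picked after their values were seen.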

Additional observations from a re-analysis of the deposited data

Results flagged for a closer look

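Some genes moved in opposite directions in the 2 mice with Poisson intervals that did not overlap in either. The difference between the mice was not tested, and each mouse gave 1 library per group. Fabp6 over all cells was at 35.8% of control in mouse 1 and at 188% in mouse 2. Within enterocyte-like cells Fabp6 was at 80.2% and 437% of control in mice 1 and 2, Fabp1 at 87.4% and 183%, and Rbp2 at 82.1% and 116%. Apoc3 went the other way, at 131% in mouse 1 and 64.4% in mouse 2.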

How the results depend on the processing

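The count of the 10 genes called over all cells was 0 with the group alone, 8 with the replicate block, 2 with DESeq2 (Apoa4 and Dgat1), 7 with DESeq2 and the block, and 9 with the block together with RLE scaling, library totals only, no filter on low counts, or limma with the shares as they are. In enterocyte-like cells the block called 1 with library totals only, no filter or resolution 2 (Fabp6 each time), and 1 in limma with the clusters as they are (Fabp6) or fixed (Apoa4). All of these were called higher. Calls over all genes rose too. They were 98 higher and 97 lower of 9842 with library totals only, against 71 and 51 of 9842 in the block fit as it stands. With no filter they were 100 and 95 of 15453, and at resolution 2 they were 110 and 84 of 9847. Outside the class the block called 2 with no filter (Dgat1, Fabp2), doublets kept (Apoa1, Fabp2) or the rank class (Apoa1, Dgat1), and 1 with the 10 genes in the clustering (Apoa1), resolution 2 (Fabp2), resolution 0.5 or at least 1000 genes (Rbp2 both). In distal enterocyte-like cells the block called 1 as it stands, with library totals only or with no filter (Fabp1), and 2 with doublets kept (Fabp1, Fabp6). The causes were not tested.

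Of the pathway genes over all cells, 0 were called with the group alone, 38 with the block, 5 with DESeq2, 28 with DESeq2 and the block, and with the block 39 under RLE scaling, 37 under library totals only, 40 with no filter and 38 in limma. In enterocyte-like cells the block called 2 (also with cells weighted equally in limma and with unnamed clusters added, where none qualified), 6 with library totals only, 4 with no filter, 3 with the 10 genes in the clustering, 5 at resolution 2, at resolution 0.5 and in limma, 1 with doublets kept or at least 1000 genes, and 7 in the mature clusters. Calls over all genes changed with the setting as well, with 143 higher and 94 lower of 9032 in the mature clusters. Leaving out 1 library each gave 0 calls in every set (lowest 0, highest 0), since the block cannot then be fitted, and a difference in enterocyte-like share of −24.1 to −6.82 points; no other setting turned it. The interaction stayed at 0 calls under its 6 alternatives. Over single genes 787 values kept their direction and call, 73 gained a call and 140 changed sign without a call. With 2 mice and a residual degree of freedom of 1 under the block, small changes can be missed. The alternatives that join the block with another choice, and the fits with shares fixed within the class or cells weighted equally, were chosen after seeing the data.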

Other observations

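Bile acid genes were also measured outside the enterocyte-like class. Slc10a2 fell there by 2.04 ± 0.18 log2 units and Fgf15, an ileal hormone that answers to bile acids, by 2.45 ± 0.21 (edgeR with the block, adjusted p = 0.0106 for both), while in enterocyte-like cells Slc10a2 was at 0.62 ± 0.17 (adjusted p = 0.0706) and Fgf15 at −1.03 ± 0.39 (adjusted p = 0.319). Summed over all cells Fgf15 had 0.216 and 4.09 CPM in knockouts 1 and 2, against 1.72 and 17.7 CPM in controls 1 and 2. Fgf15 was picked after its values were seen, and at such low levels its counts are few.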
